A study of Mus musculus with 13 samples.

Results

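Interferon-stimulated genes are described here as a set of 38 named mouse genes, read on 13 arrays of squamous epithelium from the esophagus and forestomach. The members were chosen by symbol: a probe set had to be annotated to 1 of these symbols and to no other gene, and the probe set with the highest mean stood for a gene. Of the 38 members, 35 had such a probe set and 30 passed the filter on dim signals, out of 19934 genes read in all and 15875 tested. Isg15 and Gbp2 were read only by probe sets that also carry a second gene, and Ifi44 had no annotated probe set in the table used here, so these 3 members are not analysed here.

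The study compared epithelium with floxed and with wild-type alleles of Ctnnd1, which encodes p120-catenin, a partner of E-cadherin that holds it at the cell surface. The 4 groups were forestomach masses of 3 p120 flox/flox animals (412, 426 and 510), control forestomach of 3 p120 +/+ animals (214, 216 and 217), esophagus of 4 p120 flox/flox animals (193, 307, 313 and 335), and control esophagus of the same 3 p120 +/+ animals. All groups carried L2-Cre, a Cre recombinase driven by a promoter of Epstein-Barr virus that is active in squamous epithelium of the mouth, esophagus and forestomach, and all were on a mixed C57Bl/6 and 129 background. The epithelium was peeled off after dispase treatment, no ages were stated, and total RNA was hybridised to a whole-transcript Affymetrix array. All flox/flox forestomach samples were masses, so genotype and mass cannot be told apart there. In bulk samples such as these, fewer cells of a type and less RNA per cell cannot be told apart.

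Interferons are secreted proteins that warn cells of infection. Type I and type III interferons act through receptors that switch on the kinases JAK1 and TYK2, and these drive a complex with STAT2 and IRF9 onto the interferon-stimulated response element (ISRE) of target genes. Interferon-gamma, made mainly by T and NK cells, acts through another receptor, and its target genes carry the gamma-activated site (GAS). Target genes include sensors of foreign RNA, enzymes that destroy or block it, regulators that amplify or end the response, and the machinery that presents peptides on MHC class I. Squamous epithelium of the upper gut lies between such microbes and the tissue beneath.

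Promoters are printed for members on which the results below turn or which show the element most clearly: Irf1, which was higher in masses, Ifih1 and Eif2ak2, which were lower in control forestomach than in control esophagus on every array, Tap1, which was high in 3 of 4 flox/flox esophagus arrays, and Ifit1, a textbook ISRE gene. Each window holds 300 bases, 250 before the transcription start and 50 after it, from RefSeq on GRCm38.p6. Capitals mark matches, on either strand, to the ISRE core (a pair of GAAA separated by any 2 bases) or to the GAS TTCNNNGAA, and positions count 1 for the first transcribed base and -1 for the base before it. Of 2 windows listed for Irf1, the one with a match is shown.
Irf1 promoter, chr11:53769764-53770063, plus strand: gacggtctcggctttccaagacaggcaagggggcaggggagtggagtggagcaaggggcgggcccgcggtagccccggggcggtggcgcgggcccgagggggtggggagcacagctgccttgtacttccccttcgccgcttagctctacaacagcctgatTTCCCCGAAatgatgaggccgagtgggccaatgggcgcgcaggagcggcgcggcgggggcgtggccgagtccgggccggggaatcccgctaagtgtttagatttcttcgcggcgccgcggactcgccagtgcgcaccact
Ifih1 promoter, chr2:62646206-62646505, minus strand: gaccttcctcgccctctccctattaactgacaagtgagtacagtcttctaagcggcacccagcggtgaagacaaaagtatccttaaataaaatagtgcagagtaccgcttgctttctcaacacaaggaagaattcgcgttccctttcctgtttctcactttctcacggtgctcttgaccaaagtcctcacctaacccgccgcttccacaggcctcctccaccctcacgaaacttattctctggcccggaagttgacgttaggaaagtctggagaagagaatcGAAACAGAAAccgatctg
Eif2ak2 promoter, chr17:78882523-78882822, minus strand: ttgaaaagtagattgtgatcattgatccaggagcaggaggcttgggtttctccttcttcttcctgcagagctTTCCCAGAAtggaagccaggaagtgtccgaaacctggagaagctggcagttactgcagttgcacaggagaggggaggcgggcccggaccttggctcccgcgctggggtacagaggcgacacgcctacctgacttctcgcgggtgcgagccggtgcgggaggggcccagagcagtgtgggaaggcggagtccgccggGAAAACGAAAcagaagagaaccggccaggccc
Tap1 promoter, chr17:34187306-34187605, plus strand: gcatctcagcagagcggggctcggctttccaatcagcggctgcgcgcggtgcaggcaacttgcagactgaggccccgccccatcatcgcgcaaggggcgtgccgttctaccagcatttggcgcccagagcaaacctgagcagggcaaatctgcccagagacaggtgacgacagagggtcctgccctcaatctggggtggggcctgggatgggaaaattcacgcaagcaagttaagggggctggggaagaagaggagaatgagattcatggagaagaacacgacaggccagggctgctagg
Ifit1 promoter, chr19:34640639-34640938, plus strand: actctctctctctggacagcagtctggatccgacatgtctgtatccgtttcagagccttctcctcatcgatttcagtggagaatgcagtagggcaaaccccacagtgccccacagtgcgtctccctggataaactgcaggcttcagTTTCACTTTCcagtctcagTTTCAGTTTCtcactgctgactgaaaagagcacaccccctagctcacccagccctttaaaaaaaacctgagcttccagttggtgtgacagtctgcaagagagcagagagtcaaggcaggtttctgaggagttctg
The Irf1 window holds a GAS from -90 to -82. The Ifih1 window holds an ISRE core from 33 to 42. The Eif2ak2 window holds an ISRE core from 19 to 28 and a GAS from -178 to -170. The Ifit1 window holds ISRE cores from -104 to -95 and from -85 to -76. The Tap1 window holds neither, and it overlaps the window of Psmb9, on the other strand, by 275 bases. RefSeq windows were found for 30 of the 38 members. The ISRE core was present in 14 of these 30, against 3.99% of 27025 genes with a window, and the GAS in 7 of 30, against 9.55% of genes. Overlapping cores count once per gene, and a match describes letters in the window and not a bound site.

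Arrays that stood apart are given first. Mass 426 carried genes of the glandular stomach, with a mean log2 intensity of 11.77 over 7 markers, against 5.84 and 6.18 in masses 412 and 510. Skeletal muscle markers averaged 8.11 and 9.66 in flox/flox esophagus 307 and 335 and 8.38 in control esophagus 214, and between 5.42 and 5.70 in the other esophagus arrays. Squamous markers averaged 11.4 to 11.8 on all arrays, so the markers of the labelled tissue were present. Sex was inferred from Xist and Y-linked genes. Mass 510, flox/flox esophagus 307 and controls 216 and 217 read as male, and all other animals as female. Among masses, and among flox/flox esophagus arrays, a sex effect and the level of the single male cannot be told apart. Ctnnd1 fell by 0.56 (SE 0.12, limma with Benjamini-Hochberg adjustment, adjusted p = 0.0145) in masses. That call was lost without control forestomach 214 (limma adjusted p = 0.0678), with array weights (0.0510) and with the forestomach arrays alone (0.0945). In flox/flox esophagus Ctnnd1 differed by -0.29 from control esophagus (adjusted p = 0.637). No source used here places the probes or the deleted exons, so this probe set may not measure the deletion.

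All levels below are log2 intensities of 1 probe set, and differences are between group means on that scale, each with its standard error (SE) from 1 fit to all 13 arrays. Levels of different genes are not set against each other, since probe sets differ in brightness. A gene counted as called at a Benjamini-Hochberg adjusted p under 0.05 over the 15875 genes tested. Of the 35 members read, 5 fell below the filter, as did 4059 of the 19934 genes. Ifit2, Ifit3, Mx1 and Cmpk2 stayed below 5 on every array and Mx2 passed 5 only in flox/flox esophagus 193, at 5.06, so these members entered no test. Ifit1, whose product binds foreign RNA, lay between 4.20 and 5.39 and was above 5 on 3 arrays, all of esophagus. It therefore entered the forestomach and tissue counts below on esophagus signal alone. Cxcl10 was above 5 on 6 arrays. The median level of the 30 tested members per array was 6.08 to 6.64 in masses and 5.66 to 5.84 in control forestomach. It was 6.13 to 7.17 in flox/flox esophagus and 6.02 to 6.54 in control esophagus.

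**Figure D1:**
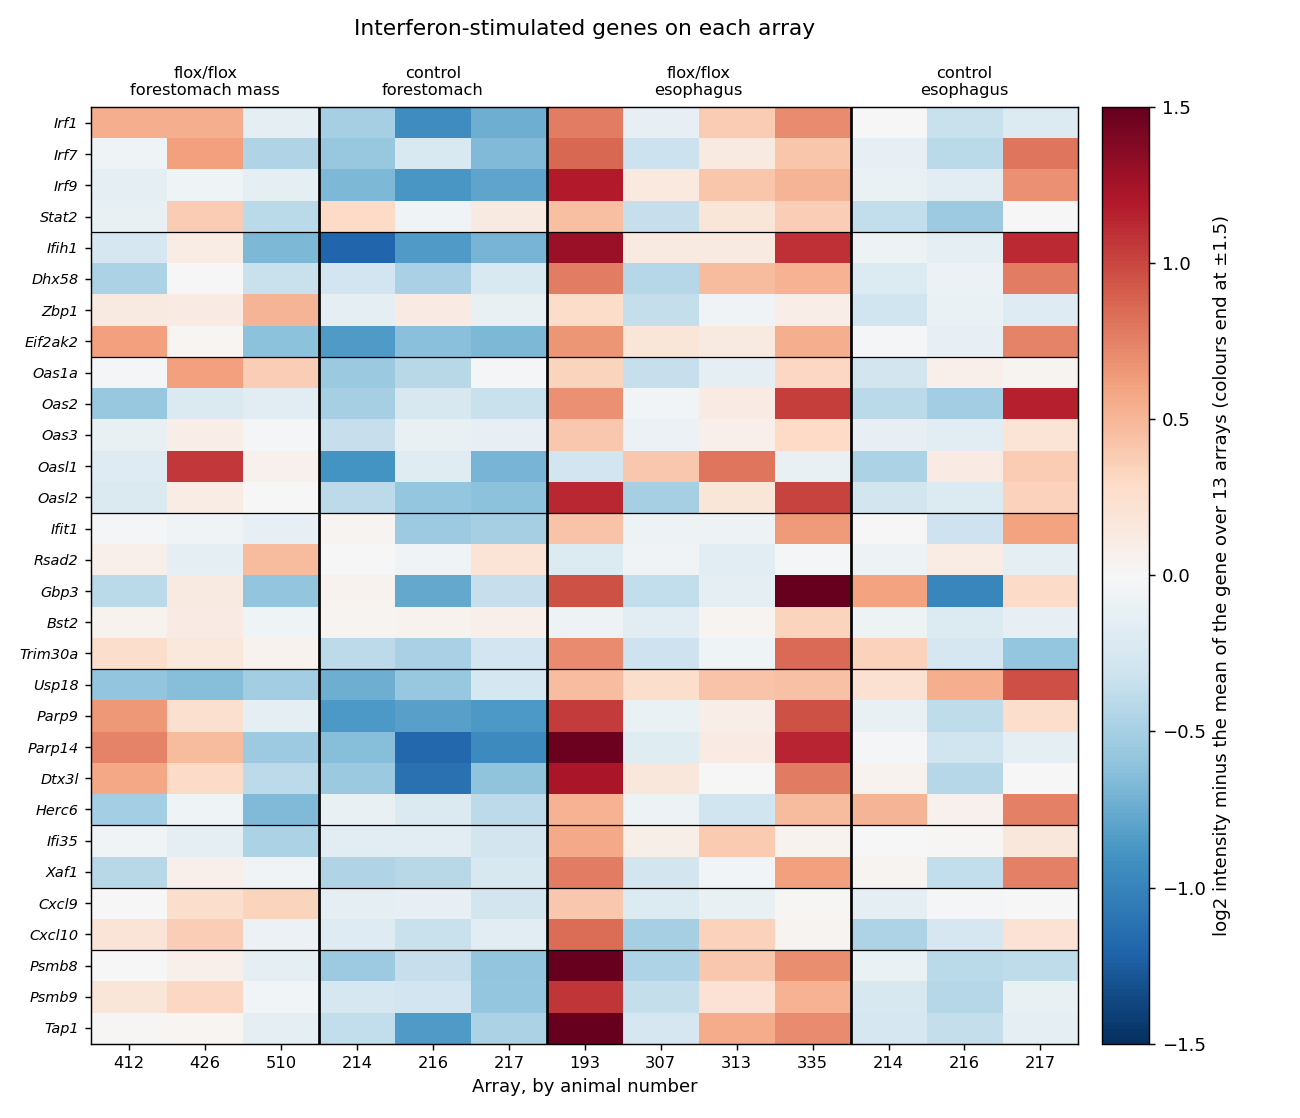
Each row is 1 of the 30 tested members, grouped by role, and each column an array; colour gives the log2 intensity minus that gene's mean over the 13 arrays. Flox/flox esophagus 193 and 335 are the warmest columns, and all 3 control forestomach columns are blue for Irf1, Irf9, Ifih1, Eif2ak2, Parp9, Parp14 and Dtx3l.

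In forestomach, 2 of the 30 tested members rose in flox/flox masses and none fell: the transcription factor Irf1 and the ADP-ribosyltransferase Parp9. Over all genes tested, 2.31% were called higher and 8.40% lower, 10.7% in all. The masses lay above control forestomach, without overlap, for 16 of the 30 members and below it for none. For all genes these shares were 10.3% above and 17.5% below. The difference was above 0 for 25 of 30 members and 51.0% of all genes, with medians of 0.43 and 0.01. At an unadjusted p under 0.05 there were 9 members, all higher in masses, and 24.8% of all genes.

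Among the regulators that carry or amplify the signal, Irf1, an interferon-regulatory factor induced strongly by interferon-gamma, differed most. Irf1 was at 7.16, 7.15 and 6.47 in masses 412, 426 and 510, and at 6.12, 5.69 and 5.88 in control forestomach 214, 216 and 217. The 3 masses were above the 3 controls, and mass 510 was nearest to them. Irf1 averaged 6.93 ± 0.40 in masses and 5.90 ± 0.22 in control forestomach (SD, n = 3 each), a rise of 1.03 (SE 0.24, 2.05-fold, limma adjusted p = 0.0205). Its other probe set, annotated through a single cDNA, gave a difference of the other sign: 5.88, 6.23 and 6.38 in masses and 6.40, 6.42 and 6.66 in control forestomach, or -0.33 (limma adjusted p = 0.148). The Irf1 result therefore holds for 1 of 2 probe sets. The call also ended when any of masses 412 and 426 or control forestomach 216 and 217 was left out (limma adjusted p = 0.0525 to 0.0828). A fit of the forestomach arrays alone lost it too (limma adjusted p = 0.0572).

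Irf9, the DNA-binding partner of STAT2, was at 7.37, 7.46 and 7.37 in masses and at 6.85, 6.65 and 6.72 in control forestomach. The masses were close together above the controls, but the difference of 0.66 (SE 0.25, limma adjusted p = 0.128) did not pass the test. It passed in the fit of the forestomach arrays alone (SE 0.12, limma adjusted p = 0.0409). Stat2, its partner, was at 7.60, 8.10 and 7.31 in masses and at 8.01, 7.66 and 7.85 in control forestomach. These groups overlapped, and the difference was -0.17 (SE 0.24). Irf7, which drives interferon-alpha genes, differed by 0.52 with wide spread among masses.

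Neighbours on chromosome 16 belong to the system of ADP-ribosylation: Parp9, a catalytically restrained member of the PARP family, its partner Dtx3l, a ubiquitin ligase, and Parp14, which attaches single ADP-ribose units. Parp9 was at 8.11, 7.69 and 7.32 in masses 412, 426 and 510, and at 6.59, 6.64 and 6.60 in control forestomach 214, 216 and 217. The controls were nearly identical and every mass was above them. Parp9 averaged 7.71 ± 0.39 in masses and 6.61 ± 0.03 in control forestomach (SD, n = 3 each) and rose by 1.10 (SE 0.31, 2.14-fold, limma adjusted p = 0.0411).

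The partner Dtx3l was at 7.24, 6.94 and 6.26 in masses and at 6.10, 5.54 and 6.06 in control forestomach. Parp14 was at 7.15, 6.88 and 5.86 in masses and at 5.77, 5.23 and 5.45 in control forestomach. In both genes mass 412 was highest and mass 510 stood just above the highest control. Dtx3l differed by 0.91 (SE 0.33) and Parp14 by 1.15 (SE 0.42), with limma adjusted p = 0.100 and 0.106, which did not pass. The Parp9 call was kept in 16 of 25 alternatives and lost, among others, without any 1 of masses 412 and 426 or of the 3 control forestomach arrays (limma adjusted p = 0.0700 to 0.122), and without control esophagus 214 (0.0525) or 216 (0.0505), which enter through the pooled spread. With sex as a covariate the Parp9 call was also lost, at a difference of 0.98 (limma adjusted p = 0.0662). Without mass 510, Parp14 (1.53), Dtx3l (1.19) and Eif2ak2 (1.04) were called as well, so 5 members were called. Without mass 426, the one with glandular genes, none of the 30 members was called, although Irf1 still differed by 0.92, Parp9 by 1.10, Parp14 by 1.02 and Dtx3l by 0.85.

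Both tested members of the ISG15 system had differences below 0 in masses. Usp18, the protease that removes ISG15 and damps the type I receptor, was at 5.83, 5.78 and 5.90 in masses and at 5.68, 5.85 and 6.16 in control forestomach. The groups overlapped and the difference was -0.06 (SE 0.17). Herc6, the ligase that attaches ISG15 in mouse, differed by -0.18 (SE 0.25), also with overlap. Outside the members, Uba7 and Ube2l6, which act in ISG15 conjugation, went the other way. They were 1.43-fold and 1.07-fold higher in masses, and neither was called.

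All 4 sensors of foreign nucleic acid had differences above 0 in masses, and none passed the test. Eif2ak2, which encodes PKR, a kinase that stops translation when it meets double-stranded RNA, was at 7.56, 6.97 and 6.32 in masses 412, 426 and 510, and at 6.09, 6.31 and 6.27 in control forestomach. Mass 412 was highest and mass 510 only just cleared the controls. The difference was 0.73 (SE 0.29, limma adjusted p = 0.146). Ifih1, which encodes the RNA sensor MDA5, was at 6.58, 6.94 and 6.15 in masses and at 5.64, 5.98 and 6.13 in control forestomach. The groups were apart by a narrow margin, and the difference of 0.64 (SE 0.39) was not called. Zbp1, a sensor of Z-form nucleic acid, differed by 0.30, and Dhx58, which encodes LGP2, a partner of MDA5, by 0.06.

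Active members of the oligoadenylate synthetase family make the messenger that switches on RNase L. All 5 tested members of this family had differences above 0 in masses, between 0.04 (Oas2) and 0.91 (Oasl1), and none was called. Oasl1, which in mouse blocks translation of Irf7, was at 7.17, 8.43 and 7.43 in masses and at 6.46, 7.18 and 6.66 in control forestomach. Mass 426 stood far above the others, and mass 412 was level with control 216, so the groups overlapped. Oas1a, a catalytic synthetase, was at 5.84, 6.47 and 6.23 in masses and at 5.29, 5.44 and 5.83 in control forestomach. Its groups were apart, and the difference of 0.66 (SE 0.22, limma adjusted p = 0.0821) did not pass. Oas3 and Oasl2 were also apart, at 5.87 to 6.07 and 6.47 to 6.80 in masses and at 5.62 to 5.86 and 6.07 to 6.30 in control forestomach, with differences of 0.19 and 0.50.

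Among direct antiviral effectors the differences ran from -0.02 to 0.55, and none was called. Bst2, which encodes tetherin, a protein that holds virus particles at the cell surface, was at 6.99, 7.06 and 6.87 in masses and at 6.99, 6.99 and 7.01 in control forestomach. These levels overlapped and differed by -0.02 (SE 0.12). Rsad2 (viperin), the guanylate-binding protein gene Gbp3 and Ifit1 differed by 0.08, 0.07 and 0.26. Trim30a, a mouse TRIM protein, was the only one of the 5 tested effectors whose groups were apart, at 5.63 to 5.84 in masses and 5.09 to 5.29 in control forestomach. Its difference of 0.55 (SE 0.30) was not called.

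Ifi35, which encodes a leucine-zipper protein induced by interferon, was at 7.35, 7.25 and 6.92 in masses and at 7.24, 7.24 and 7.12 in control forestomach, with a difference of -0.03. Xaf1, a partner of the apoptosis inhibitor XIAP, differed by 0.24. Of the chemokines that draw T cells through Cxcr3, Cxcl9 was at 5.39, 5.66 and 5.73 in masses and at 5.26, 5.27 and 5.11 in control forestomach. All 3 masses were above the controls, and the difference was 0.38 (SE 0.15, limma adjusted p = 0.133). Cxcl10 was at 4.88 to 5.34 in masses and 4.63 to 4.81 in control forestomach, near the dim end of the filter.

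The neighbouring genes on chromosome 17 serve antigen processing: Psmb8 and Psmb9, catalytic subunits of the immunoproteasome, and Tap1, a subunit of the transporter that carries peptides into the endoplasmic reticulum. For all 3 the masses were above control forestomach without overlap, and none was called. Psmb9 was at 7.91, 8.04 and 7.69 in masses and at 7.49, 7.45 and 7.15 in control forestomach, a difference of 0.52 (SE 0.28). Tap1 was at 7.34, 7.36 and 7.19 in masses and at 6.96, 6.47 and 6.86 in control forestomach, a difference of 0.53 (SE 0.32). Psmb8 differed by 0.48 (SE 0.40).

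**Figure D2:**
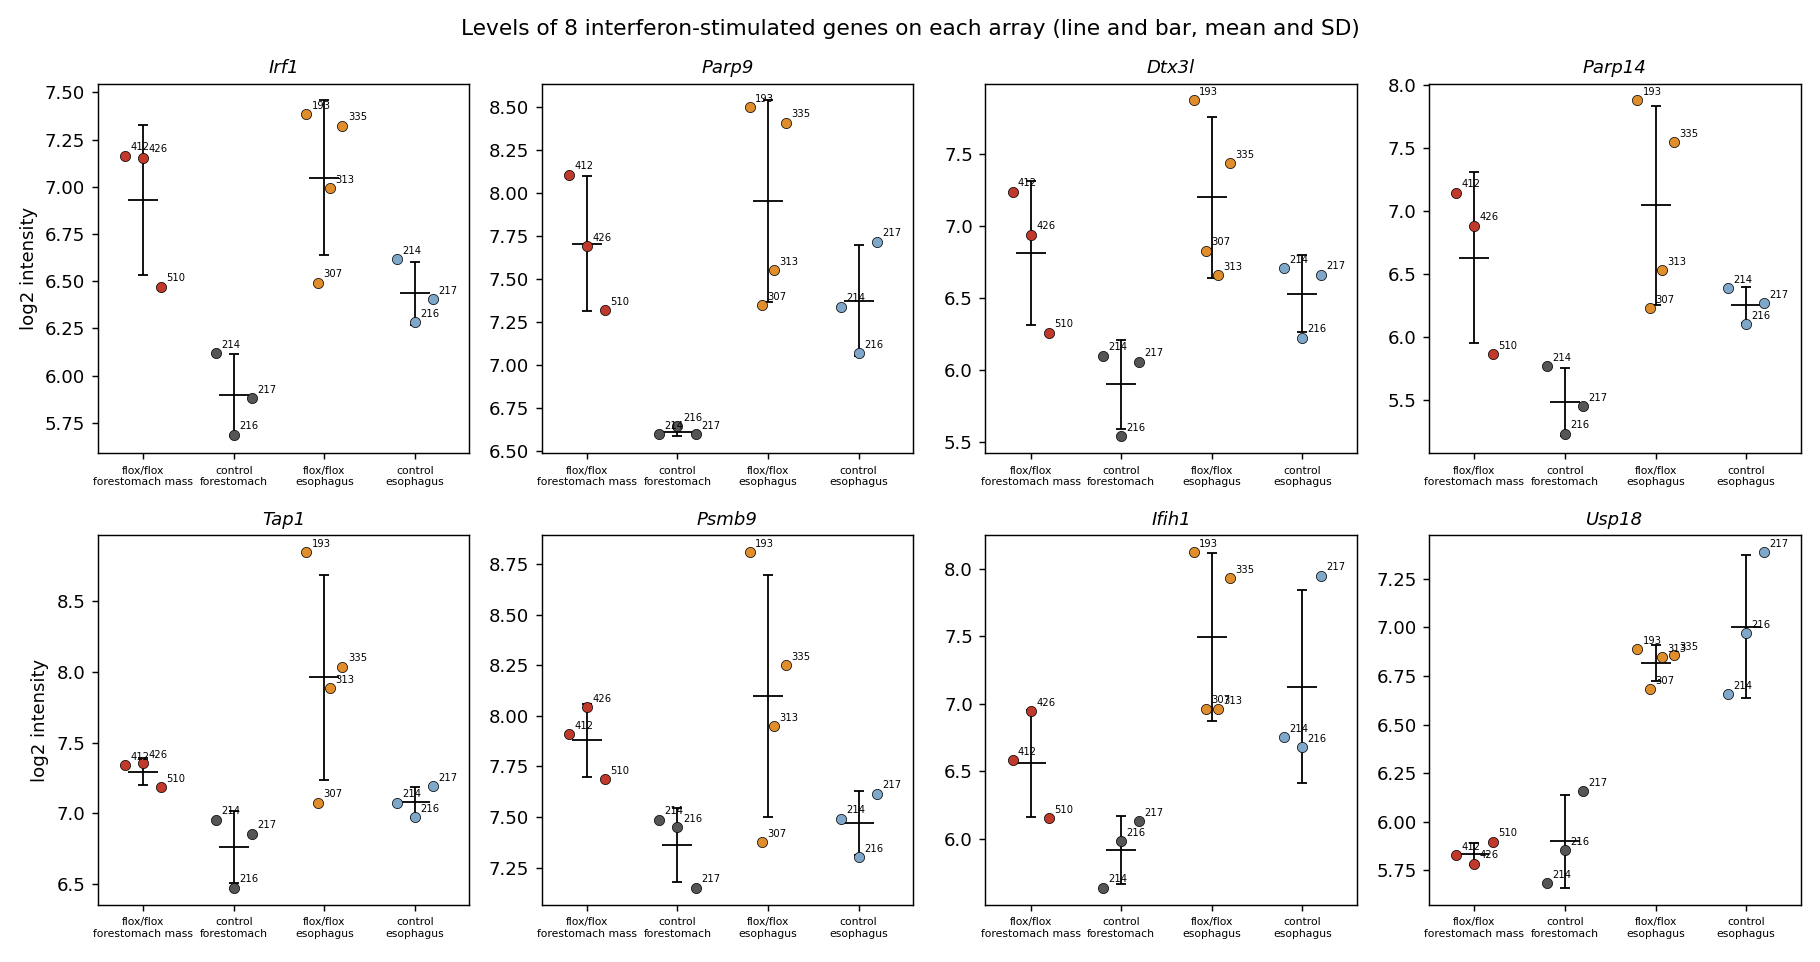
Log2 intensity of 8 members on each array, with animal numbers beside the points; lines and bars give the group mean and SD. Parp9 lies between 6.59 and 6.64 in control forestomach and between 7.32 and 8.11 in masses, and Tap1 reaches 8.85 in flox/flox esophagus 193.

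Several marker lists of other cells were also higher in masses than in control forestomach, though T and NK cell markers overlapped. Mass 510 had the lowest member median of the masses, at 6.08. It also had the lowest macrophage, fibroblast and endothelial means of the masses, but the highest neutrophil, dendritic, and T and NK means. Ptprc, the pan-leukocyte gene, was at 7.66, 6.78 and 6.73 in masses 412, 426 and 510 and at 5.85, 5.43 and 6.15 in control forestomach. Macrophage and monocyte markers averaged 6.62 to 7.31 in masses and 6.16 to 6.30 in control forestomach, with summed linear intensities of 1557.7 to 2527.1 and 1105.6 to 1245.1. None of their 13 tested genes was called. T and NK cell markers averaged 5.74 to 5.91 in masses and 5.44 to 5.82 in control forestomach. Neutrophil markers averaged 6.24 to 7.49 in masses and 5.52 to 5.74 in control forestomach, with S100a8 and S100a9, which squamous epithelium also makes, called higher among 8 tested. S100a8 and S100a9 were 43.2-fold and 21.4-fold higher, while the median log2 difference of the 8 was 0.20. Dendritic and Langerhans cell markers averaged 6.30 to 6.50 in masses and 6.06 to 6.19 in control forestomach, with Epcam, also an epithelial gene, called higher among 9. Fibroblast and matrix markers averaged 7.29 to 8.80 in masses and 6.49 to 7.28 in control forestomach. Endothelial markers averaged 6.42 to 7.54 in masses and 5.57 to 6.25 in control forestomach, with none of 10 called. The part of these cells in the member differences was not tested.

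In esophagus, no member passed limma's test between flox/flox and control, and 2 genes of the whole table did (0.0126%). At an unadjusted p under 0.05 there were 5 of 30 members, all higher in flox/flox, against 6.98% of all genes: Tap1, Irf1, Psmb8, Psmb9 and Dtx3l. The difference was above 0 for 27 of 30 members and 51.6% of all genes, with medians of 0.28 and 0.01. The groups overlapped for all 30 members, whereas flox/flox lay wholly above control esophagus for 4.18% of all genes and wholly below it for 6.10%. The spread among flox/flox animals was wide: the median SD of a member was 0.498 in flox/flox esophagus and 0.335 in control esophagus, against 0.148 and 0.137 over all genes.

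That spread had a pattern. Flox/flox animals 193 and 335 were the 2 highest of the 7 esophagus arrays for 15 of 30 members, against 9.17% of all genes, and animal 193 was the highest for 19 of 30, against 20.1%. At the low end, control esophagus 216 was lowest for 17 members, against 8.93% of all genes, and flox/flox 307 for 7. Among the 3 control esophagus arrays, animal 217 was highest for 20 of 30 members, against 30.1% of all genes. These counts describe single animals and carry no test.

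Psmb8 and Tap1, both of antigen processing, had the largest esophagus differences of the 30 members. Tap1 was at 8.85, 7.08, 7.88 and 8.04 in flox/flox esophagus 193, 307, 313 and 335, and at 7.08, 6.97 and 7.19 in control esophagus 214, 216 and 217. The animals 193, 313 and 335 stood above every control, and animal 307 was level with control 214. Tap1 averaged 7.96 ± 0.72 (SD, n = 4) in flox/flox esophagus and 7.08 ± 0.11 (SD, n = 3) in control esophagus, a difference of 0.88 (SE 0.30, limma adjusted p = 0.584). Psmb9 was at 8.81, 7.38, 7.95 and 8.25 in flox/flox esophagus and at 7.49, 7.30 and 7.62 in control esophagus. Psmb8 was at 7.93, 5.67, 6.55 and 6.84 in flox/flox esophagus and at 6.04, 5.73 and 5.75 in control esophagus. The order was that of Tap1: 193, 335, 313 and then 307, which lay among the controls for Psmb9 and below them for Psmb8. Psmb9 differed by 0.63 (SE 0.26) and Psmb8 by 0.91 (SE 0.37), both with limma adjusted p = 0.676.

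The same order appeared in Irf1, at 7.38, 6.49, 6.99 and 7.32 in flox/flox esophagus 193, 307, 313 and 335, and at 6.62, 6.28 and 6.40 in control esophagus. Its difference was 0.61 (SE 0.23, limma adjusted p = 0.614). The other Irf1 probe set did not show this order, at 6.39, 6.17, 6.49 and 6.41 in the same flox/flox arrays and 6.40, 6.39 and 6.39 in control esophagus, a difference of -0.03 (SE 0.13). Parp14 was at 7.88, 6.23, 6.53 and 7.55 in flox/flox esophagus and at 6.39, 6.10 and 6.27 in control esophagus. Here only animals 193 and 335 were far above the controls. The difference was 0.80 (SE 0.39, limma adjusted p = 0.745). Parp9 (8.50, 7.35, 7.55 and 8.41 in flox/flox, and 7.34, 7.07 and 7.72 in control esophagus) and Dtx3l (7.88, 6.83, 6.66 and 7.44 in flox/flox, and 6.71, 6.22 and 6.66 in control esophagus) were also highest in animals 193 and 335.

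In some sensors and synthetases, picked after their values were seen, control 217 was as high as flox/flox animals 193 and 335. Ifih1 was at 8.12, 6.96, 6.96 and 7.93 in flox/flox esophagus and at 6.75, 6.68 and 7.95 in control esophagus. Eif2ak2 was at 7.61, 7.13, 7.08 and 7.49 in flox/flox esophagus and at 6.92, 6.82 and 7.69 in control esophagus. Oas2, a synthetase, was at 6.80, 6.07, 6.23 and 7.15 in flox/flox esophagus and at 5.71, 5.58 and 7.27 in control esophagus. In these 3 genes control 217 stood near 193 and 335 and well above the other controls. This was not so for Zbp1, at 5.94 and 5.77 in flox/flox 193 and 335 and 5.47 in control 217. Nor was it so for the Oas1a probe set used, at 6.19 and 6.17 in flox/flox 193 and 335 and 5.90 in control 217. A probe set that carries both Oas1a and Oas1g was high in control 217, at 6.57, against 5.40 and 5.33 in controls 214 and 216. It read 6.72 and 7.29 in flox/flox 193 and 335. The differences were 0.37 (SE 0.37) for Ifih1, 0.18 (SE 0.28) for Eif2ak2 and 0.37 (SE 0.37) for Oas2.

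Irf9 was at 8.71, 7.67, 7.93 and 8.04 in flox/flox esophagus and at 7.42, 7.36 and 8.21 in control esophagus, with control 217 again high. Stat2 was at 8.17, 7.37, 7.90 and 8.08 in flox/flox esophagus and at 7.34, 7.17 and 7.72 in control esophagus, a difference of 0.47 (SE 0.22). Oasl1 did not share this order, at 7.07, 7.77, 8.17 and 7.25 in flox/flox esophagus and at 6.88, 7.49 and 7.75 in control esophagus. Ifi35 was at 7.97, 7.49, 7.80 and 7.46 in flox/flox esophagus and at 7.39, 7.42 and 7.58 in control esophagus. Cxcl9 was high in 1 animal alone, at 5.80, 5.19, 5.29 and 5.42 in flox/flox esophagus and at 5.25, 5.37 and 5.39 in control esophagus. Bst2 was at 6.86, 6.78, 6.98 and 7.27 in flox/flox esophagus and at 6.86, 6.74 and 6.82 in control esophagus.

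**Figure D3:**
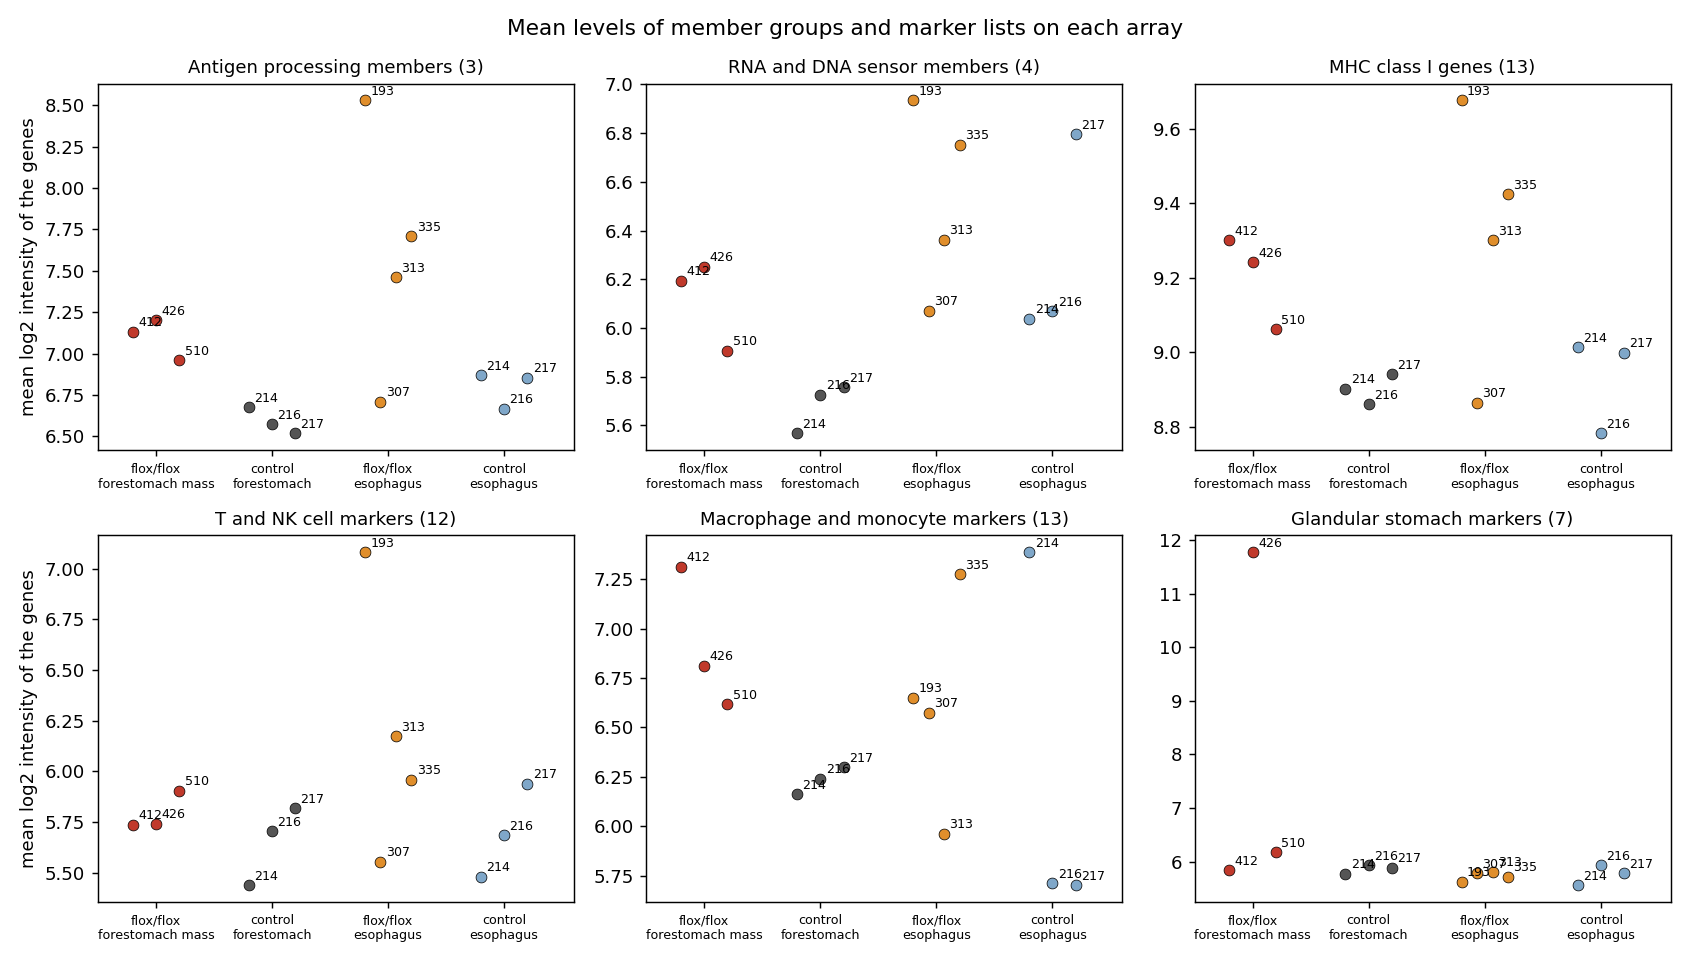
Mean log2 intensity per array of 2 groups of members, of the MHC class I list and of 3 marker lists, with animal numbers beside the points. The panel titled MHC class I genes holds mostly genes of peptide processing and presentation. Antigen processing members and T and NK cell markers are both highest in flox/flox esophagus 193, at 8.53 and 7.08, and the glandular stomach markers reach 11.77 in mass 426.

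Leukocyte genes also varied between the esophagus arrays. Ptprc was at 8.94, 5.90, 6.60 and 7.65 in flox/flox esophagus 193, 307, 313 and 335, and at 6.81, 5.05 and 6.13 in control esophagus 214, 216 and 217. The T and NK cell markers averaged 7.08 in 193 and 5.56 to 6.17 in the other flox/flox esophagus arrays, and 5.48 to 5.94 in control esophagus. Their summed linear intensity was 856.1 to 2427.5 in flox/flox esophagus and 827.9 to 1019.8 in control esophagus, and none of 12 tested genes was called. Cd3d, Gzma, Gzmb, Klrd1, Klrk1 and Ncr1 stayed below the filter. Dendritic and Langerhans cell markers averaged 6.66, 5.96, 6.27 and 6.67 in flox/flox esophagus 193, 307, 313 and 335 and 5.96 to 6.04 in control esophagus. Macrophage and monocyte markers were highest in flox/flox 335, at 7.27, and in control 214, at 7.39, and lay between 5.70 and 6.65 in the other esophagus arrays. Control 217, high in Ifih1, Eif2ak2 and Oas2, had a T and NK mean of 5.94, the highest of the control esophagus arrays. Its Ptprc level of 6.13 was below that of control 214 (6.81) and above that of control 216 (5.05). The part of leukocytes in the member differences was not tested.

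Leaving out 1 animal moved the esophagus values widely. Without 193 the member median was 0.18, Tap1 differed by 0.59 and Psmb8 by 0.51. Without 307 the median was 0.48, Tap1 differed by 1.18 and Psmb8 by 1.27. Without control 217 the median was 0.51. Without the 3 arrays high in muscle genes, an alternative chosen after seeing the data, it was 0.29, with a Tap1 difference of 1.28. No member was called under any of these.

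The change in masses and the change in flox/flox esophagus were compared directly by the difference of the 2 changes, forestomach minus esophagus. No member was called by limma, while 22 genes of the whole table were (0.139%, with 0.0819% higher and 0.0567% lower). None of the 30 had an unadjusted p under 0.05, against 10.5% of all genes. The difference of changes was above 0 for 19 members and 48.5% of all genes. The member differences of changes lay between -0.64 (Stat2, SE 0.33) and 0.71 (Oasl1, SE 0.50), with a median of 0.12. Both genotype comparisons rest on the same 3 control animals, though on different arrays of them, so their values are given side by side and not as separate support. Parp9 changed by 1.10 in masses and differed by 0.58 in flox/flox esophagus. Tap1 differed by 0.53 in masses and by 0.88 in flox/flox esophagus, and Usp18 by -0.06 and -0.19.

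**Figure D4:**
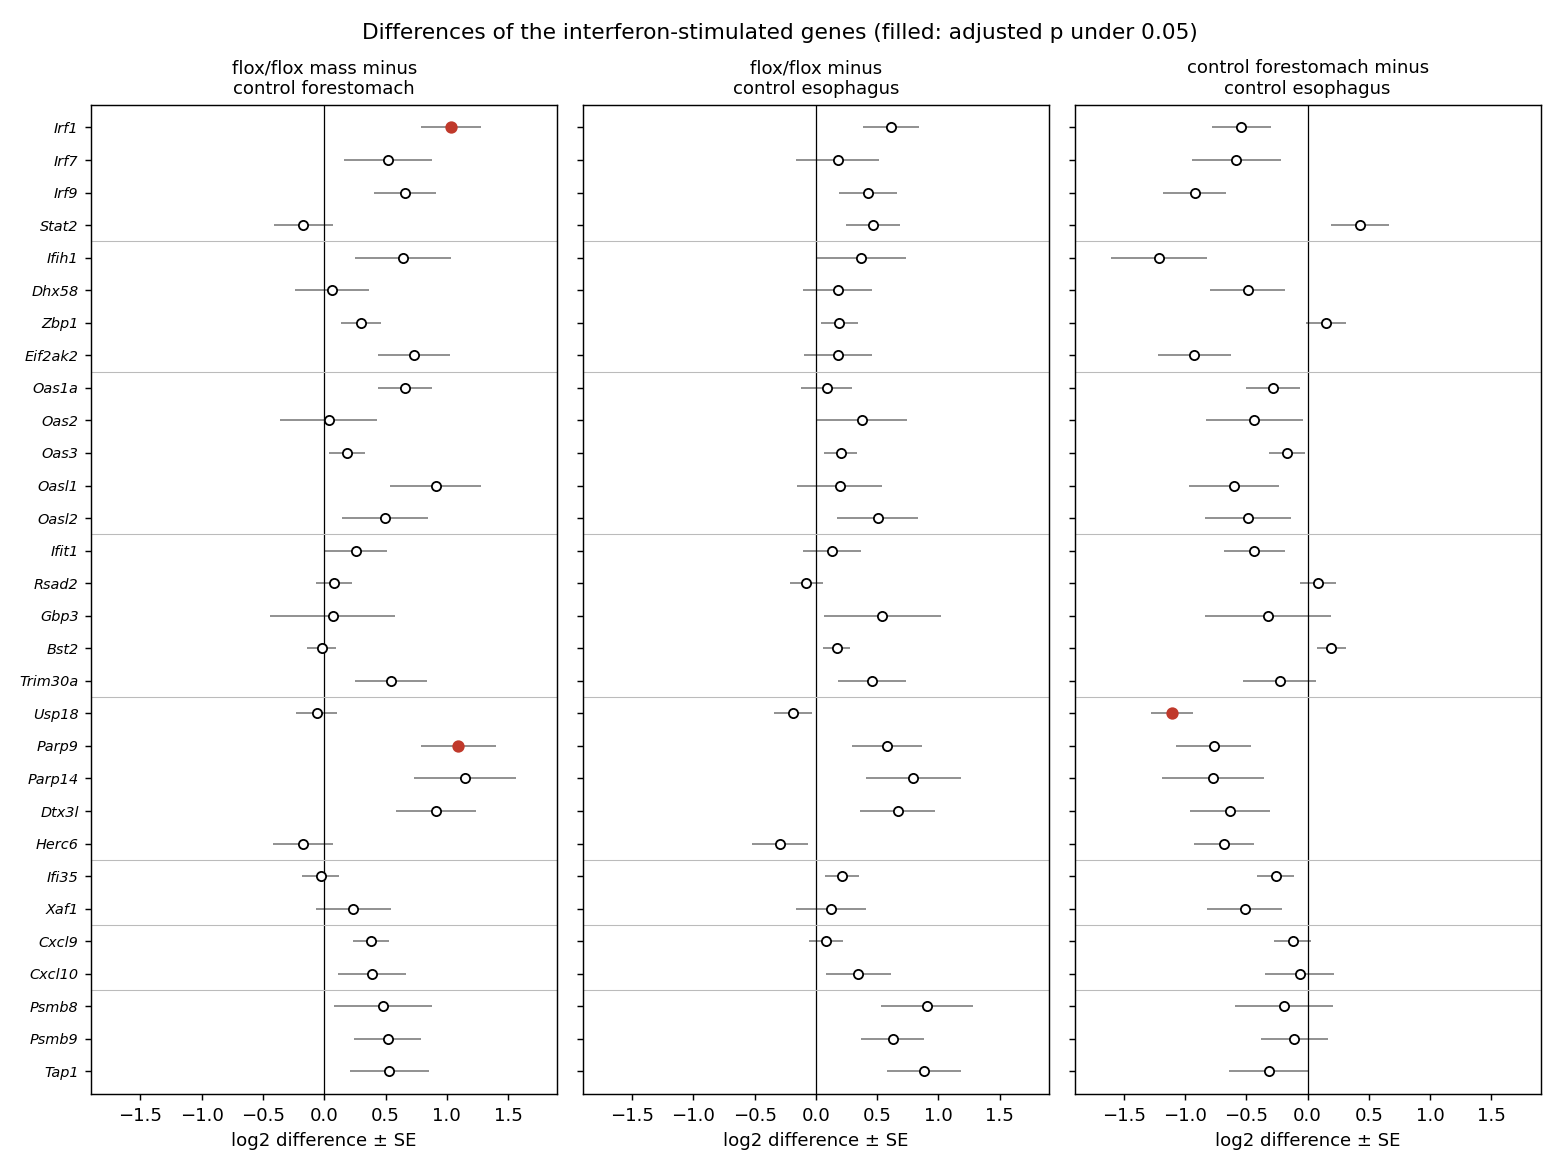
Log2 difference ± SE of the 30 tested members, grouped by role, in masses against control forestomach, flox/flox against control esophagus, and control forestomach against control esophagus; filled points have an adjusted p under 0.05. Filled are Irf1 (1.03) and Parp9 (1.10) in the first panel and Usp18 (-1.11) in the last, all from the fit without an animal block.

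Between the control tissues, in the fit without an animal block, 1 of 30 members was called lower in forestomach than in esophagus. This was Usp18, and none was called higher, against 3.16% lower and 3.51% higher among all genes (6.67% in all). Fits with the animal as a block, given below, called more members and more genes. The difference was below 0 for 26 of 30 and above it for 4, against 53.0% of all genes above 0, with medians of -0.43 and 0.02. Control forestomach lay below control esophagus without overlap for 13 members, against 19.3% of all genes, and above it for Bst2 alone, against 18.0%. At an unadjusted p under 0.05 there were 7 members, all lower in forestomach, and 21.6% of all genes. These arrays are also the controls of the genotype comparisons. Fibroblast and matrix markers had differences below 0 for all 12 genes (median -0.85) and skeletal muscle markers for all 16 (median -0.79), with none called. Control esophagus 214 had a fibroblast mean of 10.09. Without the 3 muscle-high esophagus arrays the member median was -0.47 and Usp18 was still the 1 member called, and the part of these cells was otherwise not tested.

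Usp18 was at 5.68, 5.85 and 6.16 in control forestomach 214, 216 and 217, and at 6.66, 6.97 and 7.39 in control esophagus of the same animals. The tissues were well apart, and the animals kept their order in both. The level was 2.15-fold lower in control forestomach, a log2 difference of -1.11 (SE 0.17, n = 3 each, limma adjusted p = 0.00230), and was called in all 25 alternatives that gave it a value. The flox/flox arrays had the same levels by tissue, at 5.78 to 5.90 in masses and 6.68 to 6.89 in flox/flox esophagus.

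Ifih1, at 5.64, 5.98 and 6.13 in control forestomach and 6.75, 6.68 and 7.95 in control esophagus, differed by -1.21 (SE 0.39, limma adjusted p = 0.0925). Irf9, at 6.85, 6.65 and 6.72 in control forestomach and 7.42, 7.36 and 8.21 in control esophagus, differed by -0.92 (SE 0.25, limma adjusted p = 0.0519). Eif2ak2, at 6.09, 6.31 and 6.27 in control forestomach and 6.92, 6.82 and 7.69 in control esophagus, also differed by -0.92 (SE 0.29, limma adjusted p = 0.0897). In each, every forestomach array was below every esophagus array, and esophagus 217 was farthest away. Without esophagus 217 the differences were -0.80, -0.65 and -0.65.

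The 2 tissues came from the same animals, so a fit with the animal as a replicate block applies here. With the animal as a random block, 6 members were called lower in control forestomach: Usp18, Irf9 (limma adjusted p = 0.0105), Ifih1 (0.0184), Eif2ak2 (0.0198), Herc6 (0.0369) and Parp9 (0.0496). In that fit 2670 of 15875 genes were called, against 1059 without the block. With the animal as a fixed block in the 6 control arrays, 8 of 30 members and 2348 of 15875 genes were called. These members, all lower in control forestomach, were Usp18, Irf1, Irf9, Ifih1, Parp9, Parp14, Dtx3l and Eif2ak2. The other Irf1 probe set differed by 0.10 (SE 0.13) between the control tissues, without the block.

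The antigen processing members differed by -0.32 (Tap1), -0.20 (Psmb8) and -0.11 (Psmb9) between the control tissues, with SEs of 0.28 to 0.40 and none called. Only for Tap1 did forestomach lie wholly below esophagus. Stat2 (0.43), Bst2 (0.19), Zbp1 (0.15) and Rsad2 (0.09) were the 4 members with a difference above 0, and none was called. The members of the oligoadenylate synthetase family differed by -0.60 (Oasl1) to -0.17.

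Other genes of the pathway were taken from lists chosen with earlier results of these data known. Of 23 interferon genes, 15 had a probe set and 7 passed the filter, and none was called in any comparison. Ifnl2, a type III interferon, had the smallest p in masses, with a difference of 0.39 (SE 0.13, limma adjusted p = 0.0893), and was the 1 ligand with an unadjusted p under 0.05 in any comparison. Ifnb1, interferon-beta, lay between 4.03 and 4.89 on all arrays. Ifng differed by -0.03 in masses and by 0.09 in flox/flox esophagus.

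Of 12 tested genes of receptors and their signalling, 2 rose and 2 fell in masses, against 2.31% higher and 8.40% lower over all genes. Both chains of the interferon-gamma receptor rose. Ifngr2 was at 9.81, 9.63 and 8.85 in masses and at 8.34, 8.31 and 8.43 in control forestomach, a rise of 1.07 (SE 0.21, limma adjusted p = 0.00921). Ifngr1 was at 9.44, 9.43 and 8.46 in masses and at 8.15, 7.65 and 7.79 in control forestomach, a rise of 1.25 (SE 0.29, limma adjusted p = 0.0205). As in Irf1, mass 510, the only male among the masses, was the lowest mass for both chains and still above the controls. The 2 chains of the type III receptor fell: Ifnlr1 by 0.59 (SE 0.15, limma adjusted p = 0.0326) and Il10rb, which also serves interleukin-10, by 0.65 (SE 0.19, limma adjusted p = 0.0451). The Ifngr2 call was kept in 24 of 25 alternatives, that of Ifngr1 in 20, of Ifnlr1 in 17 and of Il10rb in 9. All of these receptor calls were lost in the fit of the forestomach arrays alone (limma adjusted p = 0.0608 to 0.112). Ifngr2 was also lower in control forestomach than in control esophagus, with a difference of -0.81 (limma adjusted p = 0.0418). That tissue call was kept in 17 of 26 alternatives. It was lost without any 1 of the control arrays (limma adjusted p = 0.0920 to 0.140).

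Of 38 tested further interferon-induced genes, 4 rose and 4 fell in masses, against 2.31% higher and 8.40% lower over all genes. The share that fell was thus near that over all genes. Plscr1, a phospholipid scramblase with antiviral activity, was at 8.81, 8.99 and 8.46 in masses and at 7.41, 7.10 and 7.15 in control forestomach, a rise of 1.53 (SE 0.28, limma adjusted p = 0.00671). The block to virus entry Ifitm3 rose by 1.86 (SE 0.41), its relative Ifitm2 by 1.29 (SE 0.27) and Samhd1, which depletes nucleotides, by 1.80 (SE 0.46). Nampt, an enzyme of NAD synthesis, fell by 1.06 (SE 0.17, limma adjusted p = 0.00355) and the exonuclease Isg20 by 0.50 (SE 0.12). The falls of Tor3a and Ifi27 were 0.38 and 0.51. Plscr1 and Nampt were called in all 25 alternatives, Ifitm2 in 23, Ifitm3 in 22, Isg20 in 21, Samhd1 in 18 and Tor3a in 17. With the forestomach arrays alone, Ifitm2, Ifitm3, Isg20, Samhd1 and Tor3a were not called (limma adjusted p = 0.0649 to 0.134). In masses the median over the list was 0.22.

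For the next 2 lists too, the shares over all genes in masses were 2.31% higher and 8.40% lower. Of 13 tested genes of the MHC class I list, the chaperone Canx rose by 0.40 and the peptide-trimming enzyme Erap1 by 0.64 in masses. In that list only H2-Q4, H2-M3 and B2m encode chains of MHC class I itself, and the others serve its expression or its presentation of peptides. Tapbp, which links TAP to MHC class I, fell by 0.59. Of 17 tested sensors and adaptors, Irf2, an antagonist of Irf1, rose by 0.87 (SE 0.23, limma adjusted p = 0.0315) and none fell. These calls were kept in 19 of 25 alternatives for Canx and Irf2, 18 for Tapbp and 12 for Erap1. Each was lost with the forestomach arrays alone (limma adjusted p = 0.104 to 0.138). No gene of these 5 lists was called in flox/flox esophagus. The 2 smallest p-values of each list there belonged to Ifnl2 (a log2 difference of 0.13) and Ifna5 (-0.11), Socs3 (0.67) and Ifnlr1 (-0.36), Aim2 (0.47) and Ddx58 (0.68), Isg20 (-0.46) and Samhd1 (1.43), and Tap2 (0.60) and H2-Q4 (1.09). Between the control tissues, Phf11d (-1.36), Ube2l6, which encodes the enzyme that conjugates ISG15 (-0.81), Erap1 (-0.76) and Tlr3 (-0.69) were lower in forestomach, and the lysosomal reductase Ifi30 was higher (0.81).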

How the data were processed

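Total RNA from 13 samples was labelled with biotin and hybridised to 1-colour Affymetrix arrays. The deposited intensity values are on a linear scale and were made by the authors with GCRMA, per the submitters' processing notes. Its version is not given in the sources used here. The table holds 34729 probe sets, of which 21633 carried 1 gene, 1306 several and 11790 none. Values under 1 were set to 1 and log2 was taken. Probe sets above log2 5 on at least 3 arrays entered, with the highest-mean probe set per gene.

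The functions lmFit and eBayes of limma 3.58.1 (R 4.3.3) gave a mean for each of 4 groups from all 13 arrays, with 9 residual degrees of freedom. Benjamini-Hochberg adjustment ran over 15875 genes, with calls at an adjusted p under 0.05. The number of arrays limits the precision. On simulated forestomach data over 15875 genes with 200 changed, the fit recovered 79% of changes of 1 and 96% of changes of 2 on the log2 scale. Of its calls, 4.89% were false. The simulation gave a gene the same spread in every group. In the data the median SD over all genes was 0.248 in masses and 0.115 in control forestomach. The simulated recovery therefore need not hold for the members, and it does not describe esophagus.

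Control forestomach and esophagus came from the same 3 animals, per the labels. Their deviations from the group means correlated at 0.40, 0.40 and 0.31 within animals and at -0.43 to 0.13 between animals, so the numbers pair these arrays. Different animal numbers were taken as separate animals.

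All 38 members were to be named. Array values were due for called members and for the brightest member of each role. Of the other pathway lists, called genes were named, at most 6 per comparison, or else the 2 with the smallest p. Array values of Dtx3l, Parp14, Tap1, Psmb8, Ifih1, Irf9, Oas1a, Oas2, Plscr1, Ifngr1 and Ifngr2 were chosen after their values were seen. So were the names of Tor3a, Ifi27 and Uba7, and the printed promoters. The members and lists were chosen with earlier results of these data known. Alternatives were no filter, a filter at 7, averaging the probe sets of a gene, median centring, quantile normalization, array weights, animal blocks, eBayes with trend and robust, sex as a covariate, fits of the compared groups alone, and leaving out each array.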

Additional observations from a re-analysis of the deposited data

How the results depend on the processing

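The 3 member calls differed in how they held. Usp18 between control tissues was called in 25 of 25 alternatives, Irf1 in masses in 18 of 25 and Parp9 in masses in 16 of 25. Irf1 reversed to -0.33 with its other probe set, chosen after seeing the data. Over all alternatives the median member difference lay between 0.34 (sex) and 0.65 (filter at 7) in masses, 0.15 (array weights) and 0.51 in flox/flox esophagus, and -0.59 and -0.23 between control tissues. On leaving out 1 array it was 0.36 to 0.49, 0.17 to 0.51 and -0.59 to -0.23 in these comparisons. That of the difference of changes ran from -0.09 without control esophagus 217 to 0.24 with the filter at 7 or array weights. The filter at 7 kept only members above 7 on at least 3 arrays, so its medians cover fewer members. Irf1, Parp14 and Dtx3l passed that filter through flox/flox arrays alone. The filter thus favoured members high in flox/flox, and its values of 0.65 and 0.24 cannot be set against medians of all tested members.

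Members called in masses were 1 with the mean of probe sets, with array weights, with sex as a covariate or with the other Irf1 probe set, and 0 to 5 on leaving out 1 array, against 2. With the forestomach arrays alone the called members changed, as Irf9 was called and Irf1 was not. Members called between control tissues were 2 with quantile normalization, median centring, trend and robust eBayes or sex, 7 with array weights and 6 with the control arrays alone, against 1, and 1 to 2 on leaving out 1 array. With the animal as a replicate block, random over all arrays, the count was 6, and with a fixed block in the control arrays it was 8. The block ended no member call in another comparison.

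Genes called in masses, 1700, were 1102 with array weights, 452 with forestomach arrays alone and 753 to 2232 on leaving out 1 array. In flox/flox esophagus, 2 genes, the count was 0 with the random replicate block, sex or esophagus arrays alone, 1 without the 3 muscle-high arrays (chosen after seeing the data), and 0 to 7 on leaving out 1 array. For the difference of changes, 22 genes, it was 101 with the filter at 7, 49 with quantile normalization, 60 with array weights, 145 with the random replicate block, 56 with trend and robust eBayes, 46 with sex, 5 without the muscle-high arrays and 10 to 372 on leaving out 1 array. Between control tissues, 1059 genes, it was 3802 with array weights, 2670 with the random replicate block, 2348 with the fixed block, 2273 with control arrays alone, 479 without the muscle-high arrays and 543 to 1565 on leaving out 1 array. The cause of these changes was not tested. Low signal limits Ifit2, Ifit3, Mx1, Mx2 and Cmpk2, which stayed at or near background.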
